A study of Mus musculus with 12 samples.

Results

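The glycolysis and pentose phosphate genes of mouse osteoclasts are described here, in cells that had or had not met eosinophils. The group holds 33 genes of 47643 in the count table, picked by symbol for their place in the pathway: glucose and lactate carriers, glycolytic enzymes, pyruvate dehydrogenase kinases and pentose phosphate enzymes. The rule uses no measured value, although it was set with earlier results of these data known, and all 33 passed the filter on low counts, as did 13681 genes in total. Bulk RNA-seq. had been performed on monocytes derived from bone marrow (BMMs), taken from wild-type BALB/c mice, grown in osteoclast medium with M-CSF and RANKL, the cytokines that turn monocytes into osteoclasts. The unstimulated group is OCsCtr, the group given 2 sorted eosinophils per BMM is OCsEo, and the group given eosinophil supernatant at a dilution of 1 in 2 is OCsEoS, with 4 biological replicates each. Stimulation began at the start of culture and ended after 48 h with a wash, and RNA was taken on day 3. The eosinophils came from IL-5tg/4get mice, which overproduce IL-5 and therefore eosinophils, so that the donor cells were not wild-type. The age of the mice is not given in the sources used here.

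Glycolysis splits glucose into pyruvate and yields ATP without oxygen. Lactate dehydrogenase turns pyruvate into lactate and so regenerates the NAD+ that glycolysis needs, and proton-coupled carriers then move the lactate out of the cell. The pyruvate dehydrogenase complex instead feeds pyruvate to the mitochondria, and its kinases shut it off. The pentose phosphate pathway branches from glucose phosphate, makes NADPH in its oxidative arm for antioxidant systems and NADPH oxidases, and makes ribose for nucleotides in the other arm. Bone resorption costs much energy, and developing osteoclasts are known for dense mitochondria alongside active glycolysis.

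The largest changes past the test lay at the lactate end of the pathway. Slc16a3, a lactate exporter, was 2.16-fold higher in OCsEo and 1.78-fold higher in OCsEoS than in OCsCtr. Ldhb, the lactate dehydrogenase subunit typical of oxidative tissues, stood at 0.55 and 0.48 of its OCsCtr level, whereas its partner Ldha rose 1.29-fold and 1.24-fold. Among the hexokinases Hk1 fell and Hk3 rose in both comparisons. The abundant enzymes of lower glycolysis, from Pgk1 to Pkm, did not pass the test in either comparison. A change is called a rise or a fall only where the adjusted p of edgeR's quasi-likelihood test, with Benjamini-Hochberg adjustment over all 13681 genes, was under 0.05. A stricter count also asks for a log2 fold change beyond 0.5 in either direction.

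Libraries held 27837530 to 40327869 counts, and 3 counts in a library correspond to 0.0769 to 0.107 CPM, the counts scaled to a common library size after TMM normalization, in which all levels are given. The 33 genes took 1.67% to 1.99% of the counts of a library. All 10 osteoclast markers were present and all 10 fell in both stimulated groups, their summed level going from 28358 to 34496 CPM in OCsCtr to 18093 to 23205 in OCsEo and 14942 to 22171 in OCsEoS, and Ctsk, the collagen-degrading cathepsin, was the most abundant. In such bulk samples, fewer cells of a type and less RNA per cell cannot be told apart. Of 10 eosinophil markers 5 were tested, of which Siglecf and Alox15 rose in OCsEo. Ccr3, the most abundant, fell in both stimulated groups, and Prg2 fell in OCsEoS (log2 -2.74, adjusted p = 0.00136). The summed level of that list was 57.1 to 73.7 CPM in OCsCtr, 60.1 to 82.2 in OCsEo and 49.3 to 55.5 in OCsEoS. Most of that sum was Ccr3, with means of 59.6, 48.7 and 50.7 CPM. Alox15 averaged 0.3, 11 and 0.669 CPM, Siglecf 0.428, 2.94 and 0.827, and Prg2 5.53, 5.49 and 0.815. Epx, Prg3, Ear1 and Ear6 were at 0 in all OCsEoS libraries. They did not pass the filter on low counts, with means of at most 0.305 CPM in OCsCtr and 0.369 in OCsEo. Of 9 neutrophil markers, 4 rose in OCsEo and none passed in OCsEoS, with sums of 312 to 455, 456 to 610.1 and 357 to 425 CPM and S100a9 the most abundant. Macrophage markers, led by Csf1r, summed to 2159 to 2470.3, 1904 to 2247 and 1681 to 2067 CPM, with 1 rise and 1 fall in OCsEo and 3 rises and 2 falls in OCsEoS. T cell, B cell, erythroid and stromal lists, led by Lck, Cd79b, Hba-a1 and Col1a1, summed to at most 60.5 CPM in every library and had no member that passed in either comparison. The part of these other cells in the results that follow was not tested.

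Counted over all 33 genes, 8 rose in OCsEo against OCsCtr (24.2%, where 9.06% of all genes tested rose) and 4 fell (12.1%, where 8.35% fell). The stricter count left 2 higher (3.27% of all genes) and 1 lower (2.61%). In OCsEoS against OCsCtr, 8 rose (24.2%, against 11.8% of all genes) and 6 fell (18.2%, against 11.2%). The stricter count there gave 1 higher (3.63% of all genes) and 3 lower (4.11%). The CPM ranges of the groups did not overlap for 14 of 33 genes in each comparison (42.4%), where this held for 21.5% of all genes in OCsEo and 25.7% in OCsEoS. The median log2 fold change of the 33 genes was 0.07 in OCsEo and 0.02 in OCsEoS, beside -0.01 over all genes in each. In OCsEoS against OCsEo it was -0.09, with 8 members above 0 and 25 below, beside 0.00 over all genes. Regardless of direction, the median absolute log2 fold change of the 33 genes was 0.24 in OCsEo and 0.25 in OCsEoS. Over all genes it was 0.21 and 0.24. The shares over all genes were not matched to the members for level, on which passing the test also depends. Both comparisons with OCsCtr share the OCsCtr libraries, so that their fold changes are not independent of each other.

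**Figure D1:**
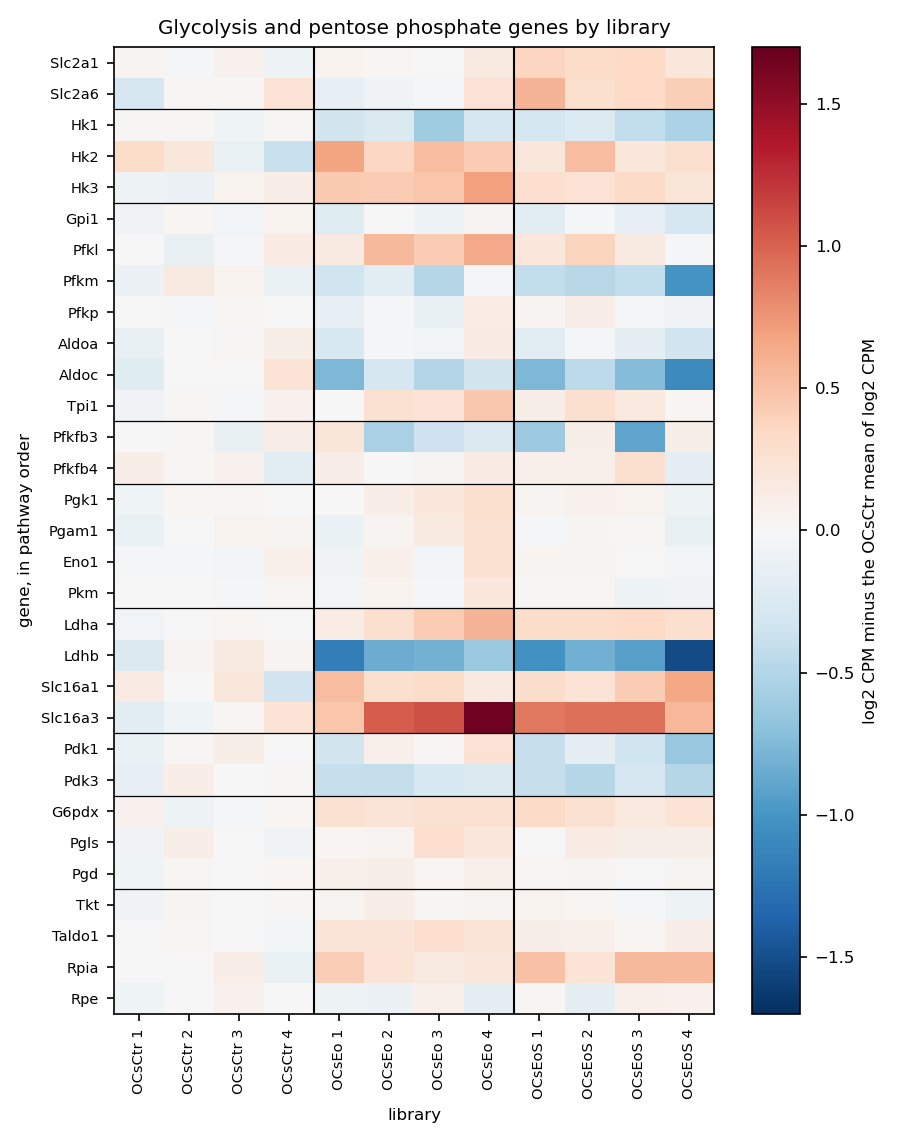
Colors give log2 CPM minus the OCsCtr mean of log2 CPM for 31 of the 33 genes (rows, in pathway order, with lines between functional classes) in each of the 12 libraries (columns); Gapdh and Eno2, whose spread exceeds the scale, are left out. Slc16a3 is high and Ldhb is low in all 8 stimulated libraries, and the rows from Pgk1 to Pkm stay close to the OCsCtr level.

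**Figure D2:**
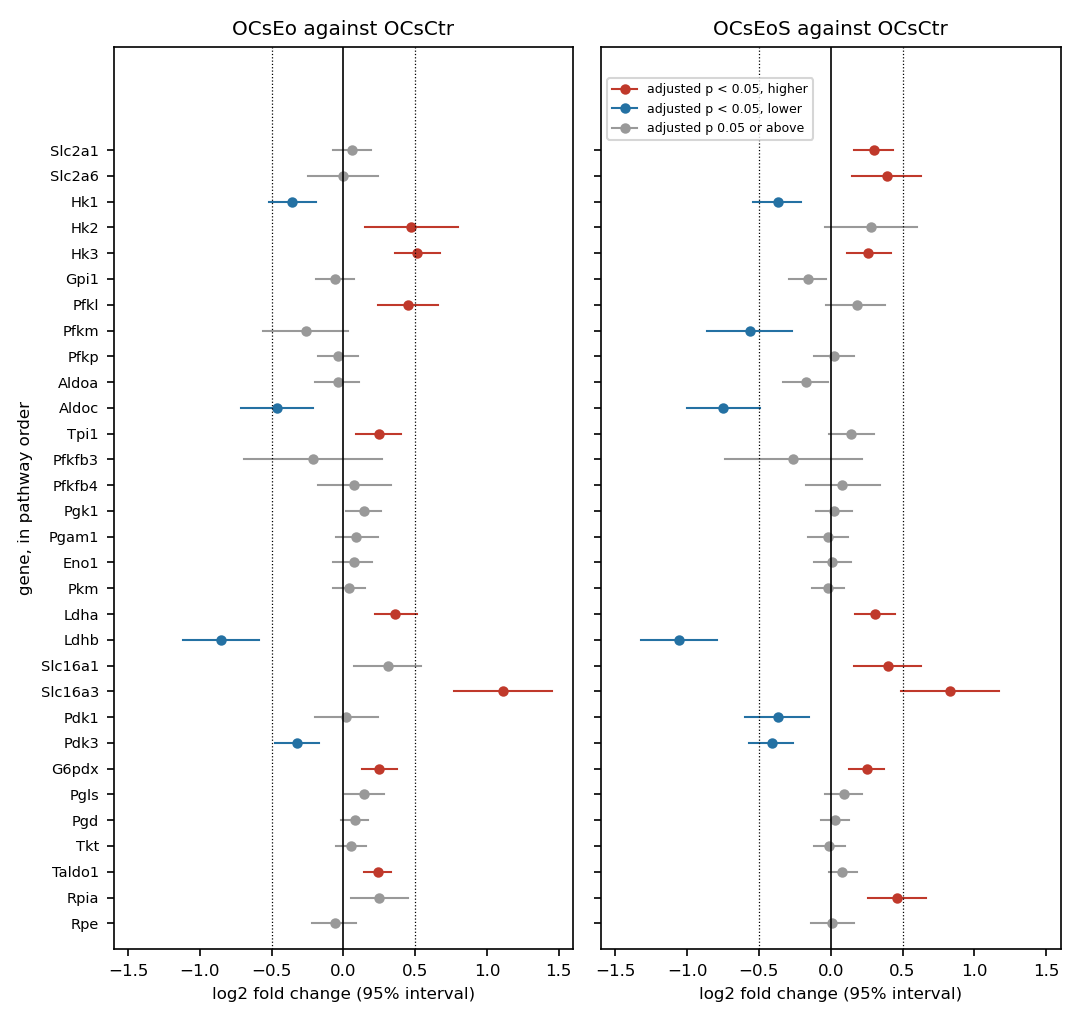
Points are log2 fold changes from edgeR against OCsCtr and lines are their 95% intervals, for OCsEo on the left and OCsEoS on the right; dotted lines mark 0.5 in either direction, and Gapdh and Eno2, whose intervals exceed the axis, are left out. Slc16a3 and Ldhb lie beyond the dotted lines in both panels.

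Glucose enters these cells through facilitative carriers. Slc2a1 (GLUT1), the carrier of most proliferating cells, measured 89, 85, 90.8 and 81.2 CPM in OCsCtr, 89.7, 88.7, 86.1 and 96.2 in OCsEo, and 111, 107, 109 and 98.7 in OCsEoS. All 4 OCsEoS libraries thus lay above all others, and the rise in OCsEoS was 1.23-fold (log2 0.30, SE 0.06, adjusted p = 0.00223, edgeR). Slc2a6, a lysosomal carrier of myeloid cells, ranged from 18.7 to 26.6 CPM in OCsCtr, from 20.7 to 27 in OCsEo and from 27.4 to 33.9 in OCsEoS. Its rise in OCsEoS (1.31-fold, adjusted p = 0.019) did not pass without OCsCtr replicate 1 (adjusted p = 0.0832) or OCsEoS replicate 1 (adjusted p = 0.0641). In OCsEo neither carrier moved beyond the spread of the replicates, with intervals of -0.07 to 0.19 for Slc2a1 and -0.25 to 0.24 for Slc2a6 on the log2 scale.

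Hexokinases trap glucose in the cell by phosphorylating it, and the isozymes went in opposite directions. Hk1, the ubiquitous isozyme that docks on mitochondria, measured 139, 139, 130.0 and 139 CPM in OCsCtr, 110.2, 115, 89.8 and 112 in OCsEo and 111, 116, 102 and 93.9 in OCsEoS. The stimulated libraries were all under the OCsCtr range, and Hk1 fell by 22.0% in OCsEo (adjusted p = 0.00363) and by 22.8% in OCsEoS (adjusted p = 0.00194). Hk3, an isozyme found mainly in myeloid cells, measured 64, 63.5, 71 and 73.5 CPM in OCsCtr, 92.3, 91.7, 94.2 and 110.1 in OCsEo and 82.4, 80.7, 85.1 and 78.4 in OCsEoS. No library of one group overlapped with another group, OCsEo being the highest and OCsEoS in between. Hk3 rose 1.43-fold in OCsEo (log2 0.51, SE 0.07, adjusted p = 9.60e-05) and 1.20-fold in OCsEoS (log2 0.26, SE 0.07, adjusted p = 0.0136). In OCsEo its log2 fold change dropped under 0.5 without OCsCtr replicate 1 (0.48), OCsCtr replicate 2 (0.48) or OCsEo replicate 4 (0.45), and in OCsEoS the test was missed without OCsCtr replicate 1 (adjusted p = 0.0561).

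Hk2, the inducible isozyme, was scarce, at 6.38 to 10.3 CPM in OCsCtr, 10.6 to 13.3 in OCsEo and 9.44 to 12 in OCsEoS. Its 1.39-fold rise in OCsEo (adjusted p = 0.0391) was not past the threshold without OCsCtr replicate 3 (adjusted p = 0.105), OCsCtr replicate 4 (adjusted p = 0.142), or OCsEo replicates 1, 3 or 4 (adjusted p = 0.117, 0.0798 and 0.0546). Per length, Hk3 made up 51.4% ± 2.63 (SD, n = 4) of the hexokinase CPM per kilobase in OCsCtr, 64.5% ± 2.74 in OCsEo and 61.2% ± 2.19 in OCsEoS. The Hk1 share of that sum was 44.6% ± 1.84, 30.6% ± 2.72 and 34.1% ± 1.94. Neither share overlapped between OCsCtr and a stimulated group, and no test was made of these shares. Their size depends on the gene lengths used, 8532 bases for Hk1 and 3682 for Hk3. In CPM without length, Hk1 was above Hk3 in OCsCtr, at 137 against 68 on average.

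Upper glycolysis turns glucose phosphate into triose phosphates, with phosphofructokinase as its main control point. Pfkl, the liver-type subunit, rose 1.36-fold in OCsEo (log2 0.45, SE 0.10, adjusted p = 0.00344), from 61.7 to 74.4 CPM in OCsCtr to 74.5 to 105 in OCsEo. In OCsEoS it ranged from 65.7 to 87.2 CPM and overlapped with OCsCtr (log2 interval -0.03 to 0.38). Pfkm, the muscle-type subunit, measured 15.1, 18.1, 17 and 15 CPM in OCsCtr, 12.8, 14.2, 11.6 and 15.9 in OCsEo and 12.2, 11.7, 12.2 and 8.11 in OCsEoS. All 4 OCsEoS libraries were below OCsCtr and Pfkm fell by 32.4% there (log2 -0.56, SE 0.14, adjusted p = 0.00688). Without OCsEoS replicate 4, the lowest library, the log2 value was -0.44 and no longer beyond 0.5. Pfkp, the platelet-type subunit, stayed between 90.2 and 108 CPM in all libraries. Pfkm shares 10.21% of its exonic bases with the gene Gm26513 on its own strand in the annotation.

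Aldolase cleaves the bisphosphate. Aldoa, the main isozyme, measured 2905 to 3375 CPM in OCsCtr, 2641 to 3475 in OCsEo and 2519 to 3111 in OCsEoS, and did not pass the test (adjusted p = 0.75 and 0.0916). The brain-type isozyme Aldoc measured 79.9, 91.4, 91.7 and 108 CPM in OCsCtr, 54.2, 76, 65.1 and 74.2 in OCsEo and 54.5, 67.5, 55.5 and 43.5 in OCsEoS. Both stimulated groups lay wholly below OCsCtr. Aldoc fell by 27.4% in OCsEo (log2 -0.46, SE 0.12, adjusted p = 0.0108) and by 40.4% in OCsEoS (log2 -0.75, SE 0.12, adjusted p = 1.79e-04). Its ratio to Aldoa per length went from 0.0337 ± 0.00223 (SD, n = 4) in OCsCtr to 0.0252 ± 0.00201 in OCsEo and 0.0226 ± 0.00208 in OCsEoS.

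Gpi1, the isomerase after hexokinase, fell short of the threshold in OCsEoS (log2 -0.16, adjusted p = 0.0797) and ranged over 443 to 565 CPM in all libraries. Tpi1, which interconverts the triose phosphates, was 709.5 to 777 CPM in OCsCtr and 741 to 1012 in OCsEo, overlapping, with a 1.19-fold rise (adjusted p = 0.0247). That rise did not pass without OCsCtr replicate 1 (adjusted p = 0.0698), OCsCtr replicate 3 (adjusted p = 0.0668) or OCsEo replicate 4 (adjusted p = 0.111), nor once the trend with gene length was removed (adjusted p = 0.0506). The bifunctional regulators Pfkfb3 and Pfkfb4, which set the level of the activator of phosphofructokinase, were low at 3.09 to 6.63 and 10.8 to 15 CPM. Their intervals reached from -0.74 to 0.27 for Pfkfb3 and from -0.18 to 0.34 for Pfkfb4 over both comparisons. Changes within these intervals were not resolved here, and the interval of Pfkfb3 was the wider.

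Lower glycolysis yields ATP and pyruvate and held several of the most abundant genes. Aldoa of upper glycolysis averaged more CPM than Pkm in OCsCtr, 3167 against 2953. In OCsCtr, Pkm (pyruvate kinase) led at 1136 CPM per kilobase, before Aldoa at 842, Ldha at 782, Pgk1 at 716 and Pgam1 at 504, whereas Hk2 at 1.42, Pfkfb3 at 0.762 and Eno2 at 0.0987 were the lowest of the 33. Pgk1 (phosphoglycerate kinase) averaged 1608 ± 60.8 CPM (SD, n = 4) for OCsCtr, against 1775 ± 144 for OCsEo and 1636 ± 81.9 for OCsEoS. Pgam1 (phosphoglycerate mutase), Eno1 (enolase) and Pkm differed by at most 0.09 on the log2 scale in either comparison, and all their groups overlapped. Eno1 shares near-identical sequence with the copy Eno1b, which held 27.1% to 29.6% of their summed counts, and the sum did not pass either (log2 0.08 and 0.00). Eno2, the neuron-type enolase, which hypoxia induces in many cells, was at the edge of detection, with 6 to 24 counts per library in OCsCtr, 27 to 78 in OCsEo and 0 to 26 in OCsEoS. Its OCsEo libraries lay above OCsCtr, but the log2 difference of 1.42 (SE 0.77) did not pass the test (adjusted p = 0.229).

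Gapdh, the dehydrogenase of this step and a widely used reference gene, could not be read from its own row. It held 2209, 6294, 4656 and 6037 counts in OCsCtr, 215, 7132, 7575 and 244 in OCsEo and 239, 172, 218 and 6223 in OCsEoS. Thus the values fell into a high and a low class that ran across both stimulated groups, and the within-group SD of 2.13 on the log2 scale ranked 1 among 6832 genes with a mean of at least 500 counts (median SD 0.123). Meanwhile Gm13394, a processed pseudogene of Gapdh on chromosome 2 (28933610 to 28934609, 1000 bases in the table), held 21789 to 33747 counts per library, more than Gapdh itself in all 12. Over the 359 table entries described as Gapdh copies, 107 of them with counts, the copies took 80.6% to 99.4% of the sum with Gapdh. Summed with its copies, Gapdh averaged 985 ± 92 CPM (SD, n = 4) for OCsCtr, against 987 ± 137 for OCsEo and 849 ± 67.2 for OCsEoS, with log2 differences of 0.00 (adjusted p = 0.986) and -0.21 (adjusted p = 0.0819). On its own row the log2 difference in OCsEoS was -1.54 (adjusted p = 0.279), and -4.47 (adjusted p = 0.00175) without OCsEoS replicate 4. Without a filter on low counts it was -1.55 (adjusted p = 0.00455). The part of read assignment between gene and copies was not tested.

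**Figure D3:**
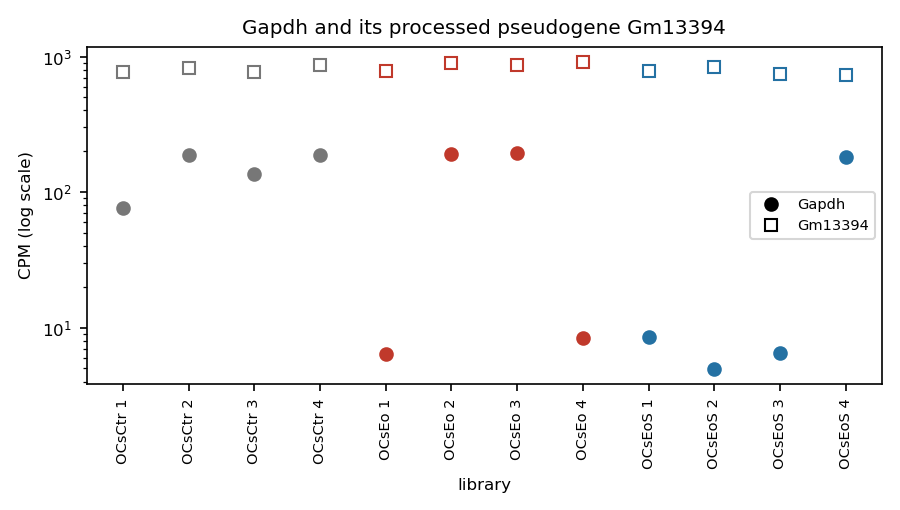
CPM on a log scale for Gapdh (filled circles) and its processed pseudogene Gm13394 (open squares) in each of the 12 libraries, gray for OCsCtr, red for OCsEo and blue for OCsEoS. Gapdh sits between 76.6 and 194 CPM in 7 libraries and between 4.98 and 8.51 in 5, while Gm13394 stays between 727 and 906 CPM.

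Among members that passed the test, lactate carriers and lactate dehydrogenase held the largest changes. Slc16a3 (MCT4, ENSMUSG00000025161, chromosome 11, 120948480 to 120960868), the low-affinity carrier with which glycolytic cells export lactate, measured 73.6, 79.3, 85.3 and 98.2 CPM in OCsCtr, 116, 170, 177 and 263 in OCsEo and 155, 160.0, 159.7 and 124 in OCsEoS. All stimulated libraries lay above all OCsCtr libraries, with the widest spread in OCsEo. Slc16a3 rose by 1.11 on the log2 scale in OCsEo (SE 0.16, interval 0.77 to 1.45, adjusted p = 1.03e-04) and by 0.83 in OCsEoS (SE 0.16, interval 0.49 to 1.17, adjusted p = 8.70e-04). Leaving out any 1 library kept the log2 fold change between 0.88 and 1.27 in OCsEo and between 0.76 and 0.92 in OCsEoS. Slc16a1 (MCT1), a carrier of higher affinity that works in either direction, measured 33.6 to 48 CPM in OCsCtr, 46.6 to 60.7 in OCsEo and 49.2 to 66.3 in OCsEoS. It rose 1.32-fold in OCsEoS (adjusted p = 0.0145), though not without OCsCtr replicate 4 (adjusted p = 0.0618) or OCsEoS replicate 4 (adjusted p = 0.0603), and overlapped with OCsCtr in OCsEo (log2 0.31, adjusted p = 0.0654). That value passed in 8 of 23 alternatives, among them DESeq2 on all 12 libraries (adjusted p = 0.038), DESeq2 on the 2 groups (adjusted p = 0.027) and edgeR with low-count genes kept (adjusted p = 0.0198).

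Lactate dehydrogenase is a tetramer of A and B subunits, the A form favoring lactate and the B form pyruvate. Ldhb (ENSMUSG00000030246, chromosome 6, 142490249 to 142507957) measured 109.7, 135, 145 and 134 CPM in OCsCtr, 57.6, 72.8, 74.8 and 84.3 in OCsEo and 63.8, 73.6, 68.6 and 45.5 in OCsEoS. The highest stimulated library was thus below the lowest OCsCtr library. Ldhb fell by 44.7% in OCsEo (log2 -0.85, SE 0.13, adjusted p = 1.17e-04) and by 51.9% in OCsEoS (log2 -1.06, SE 0.13, adjusted p = 1.22e-05), and without any 1 library the log2 values lay between -0.94 and -0.76 and between -1.14 and -0.92. Ldha (ENSMUSG00000063229, chromosome 7, 46841475 to 46855627) measured 2260.3, 2343, 2395 and 2329.6 CPM in OCsCtr, 2547, 2823, 3151 and 3485 in OCsEo and 2899.7, 2903, 2958 and 2817 in OCsEoS. Here every stimulated library exceeded every OCsCtr library. Ldha rose by 0.36 on the log2 scale in OCsEo (SE 0.07, adjusted p = 9.35e-04) and by 0.31 in OCsEoS (SE 0.07, adjusted p = 0.00224). The ratio of Ldhb to Ldha in CPM per kilobase was 0.106 ± 0.00985 (SD, n = 4) for OCsCtr and dropped to 0.0457 ± 0.00251 with eosinophils and 0.0412 ± 0.00747 with supernatant. Its lowest OCsCtr value, 0.0921, was well above its highest stimulated value, 0.049.

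**Figure D4:**
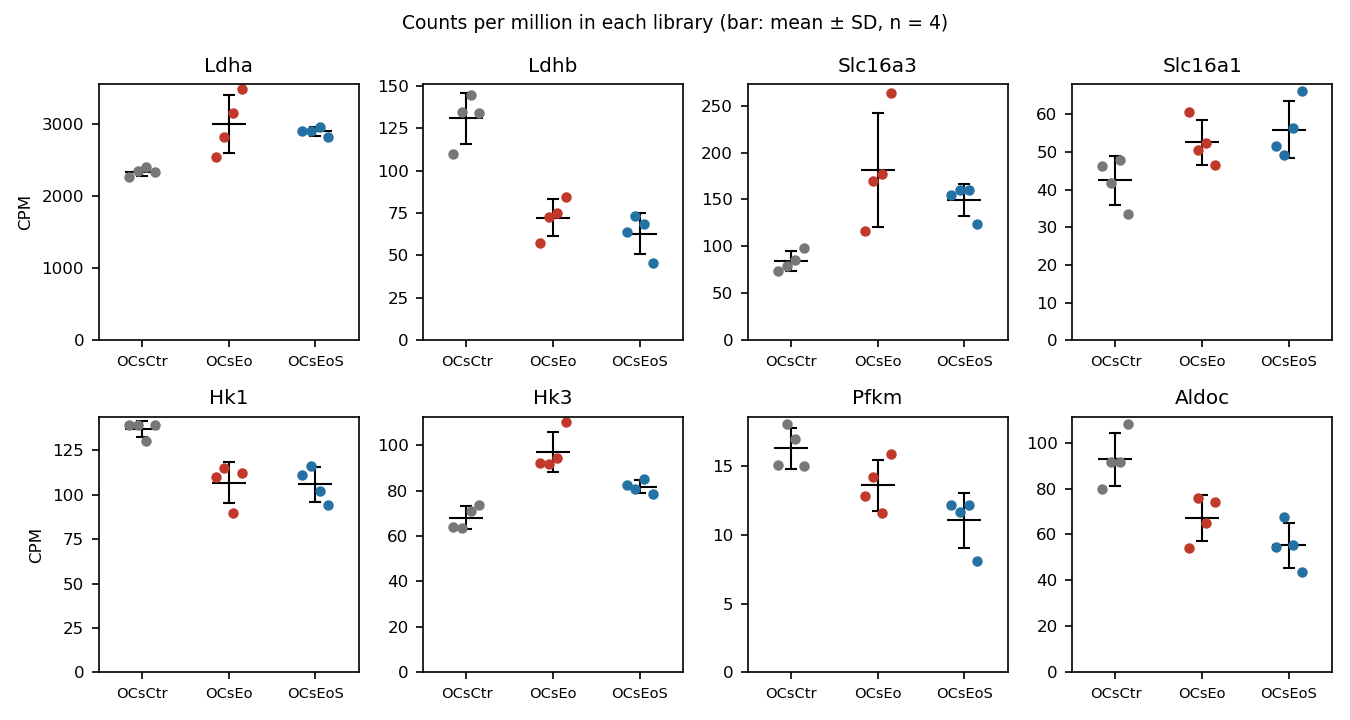
CPM in each library (points) with the group mean ± SD (black bars, n = 4) for the genes of the lactate step (top) and for Hk1, Hk3, Pfkm and Aldoc (bottom), all axes starting at 0. Ldhb, Hk1 and Aldoc of both stimulated groups lie below OCsCtr without overlap, and Ldha, Slc16a3 and Hk3 lie above it.

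**Figure D5:**
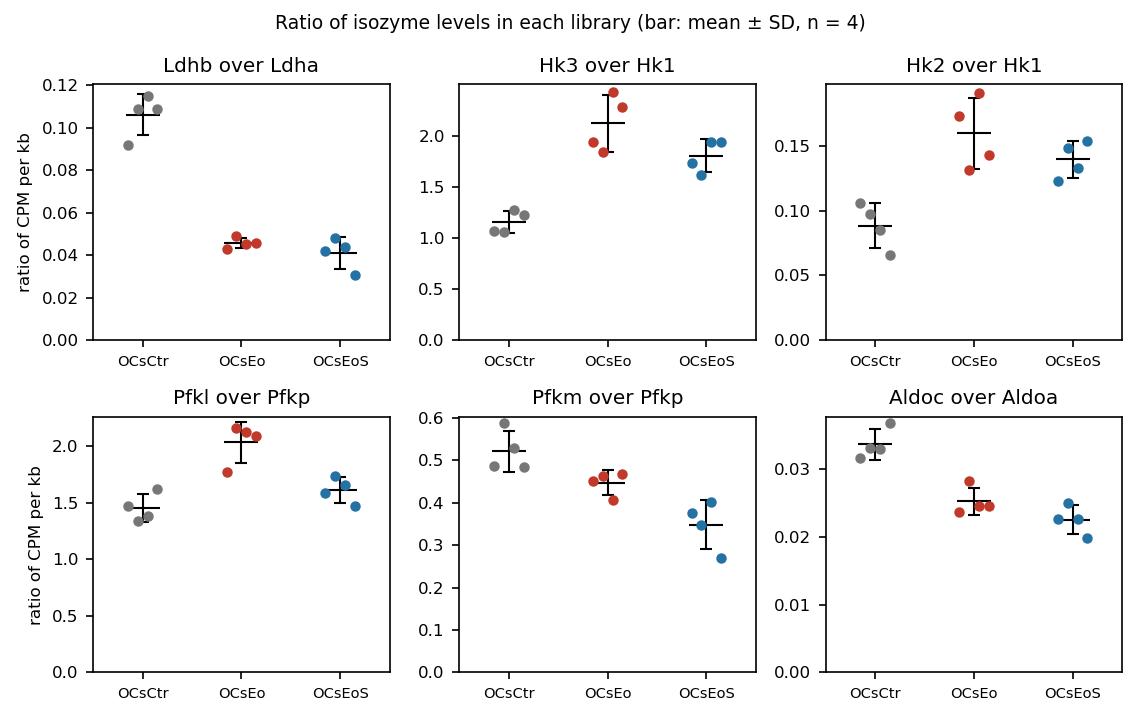
Ratios of CPM per kilobase between isozymes in each library (points) with the group mean ± SD (black bars, n = 4), all axes starting at 0. Ldhb over Ldha and Aldoc over Aldoa are lower, and Hk3 over Hk1 and Hk2 over Hk1 higher, in all 8 stimulated libraries than in any OCsCtr library, while Pfkl over Pfkp is higher without overlap in OCsEo and overlaps in OCsEoS.

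To show the sequence in front of these genes, promoters were read from RefSeq (GRCm38.p6), 250 bases before to 50 after the start, for the 2 genes past the stricter count in both comparisons, Slc16a3 and Ldhb, and for Ldha, added after its values were seen because it is the counterpart of Ldhb. Capitals mark ACGTG on either strand (CACGT on the other), the core of the hypoxia response element, or the E-box CACGTG, which contains it. The Slc16a3 window is chr11:120948817-120949116 on the plus strand, the Ldhb window chr6:142507908-142508207 on the minus strand, and the Ldha window chr7:46845554-46845853 on the plus strand, the upstream one of 2 listed starts.
Slc16a3: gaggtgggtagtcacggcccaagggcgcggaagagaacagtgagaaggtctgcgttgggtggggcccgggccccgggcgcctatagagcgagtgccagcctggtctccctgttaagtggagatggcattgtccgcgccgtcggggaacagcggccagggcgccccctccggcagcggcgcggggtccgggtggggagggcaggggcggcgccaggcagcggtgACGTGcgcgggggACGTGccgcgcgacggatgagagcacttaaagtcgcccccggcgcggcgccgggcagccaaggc
Ldhb: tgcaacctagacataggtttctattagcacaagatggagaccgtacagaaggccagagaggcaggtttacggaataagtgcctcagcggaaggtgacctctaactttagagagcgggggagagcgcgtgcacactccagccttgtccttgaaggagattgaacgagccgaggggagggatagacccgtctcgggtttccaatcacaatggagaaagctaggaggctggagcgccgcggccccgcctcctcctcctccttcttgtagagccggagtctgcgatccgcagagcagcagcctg
Ldha: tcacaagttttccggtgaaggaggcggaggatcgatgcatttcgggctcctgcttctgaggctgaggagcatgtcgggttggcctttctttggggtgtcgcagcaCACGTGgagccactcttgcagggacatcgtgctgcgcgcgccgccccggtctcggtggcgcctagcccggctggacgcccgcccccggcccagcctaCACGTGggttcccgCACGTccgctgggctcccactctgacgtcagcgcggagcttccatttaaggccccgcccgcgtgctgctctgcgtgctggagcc
The Slc16a3 window held ACGTG at 27 and 14 bases before the start, and the Ldha window held the E-box at 145 and 48 bases before the start and a further CACGT at 34. The Ldhb window held none of these letters. Over all members, 17 of 33 (51.5%) had ACGTG in at least 1 listed promoter, beside 21.8% of the 27025 genes in the promoter table. By direction, the letters were present in 5 of the 8 genes that rose and 3 of the 4 that fell in OCsEo, and in 6 of 8 and 4 of 6 in OCsEoS. Among members that did not pass, they were present in 9 of 21 in OCsEo and 7 of 19 in OCsEoS. The E-box was found in 4 of 33 (12.1%, beside 8.09% of all genes). The core of the antioxidant response element, TGACNNNGC (GCNNNGTCA on the other strand), was found in 5 of 33 (15.2%, beside 14% of all genes), among them G6pdx and Pgd. Such matches describe letters and not occupied sites.

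Pyruvate that is not made into lactate can enter the pyruvate dehydrogenase complex, which the kinases Pdk1 and Pdk3 switch off. Pdk3 measured 75.1, 89.9, 82.7 and 84.2 CPM in OCsCtr, 63.1, 62.8, 69.4 and 70.1 in OCsEo and 63, 59.1, 68.2 and 59 in OCsEoS. It lay below OCsCtr in all 8 stimulated libraries and fell by 20.1% in OCsEo (adjusted p = 0.00459) and fell by 24.9% in OCsEoS (adjusted p = 4.73e-04). Pdk1, a hypoxia-inducible kinase in many cells, was 68.9 ± 4.34 CPM (SD, n = 4) in OCsCtr and 69.9 ± 10.9 in OCsEo, but 53.2 ± 7.29 in OCsEoS. Pdk1 fell by 22.8% in OCsEoS (adjusted p = 0.0149), though not without OCsCtr replicate 3 (adjusted p = 0.0533) or OCsEoS replicate 4 (adjusted p = 0.0646), nor once the trend with gene length was removed (adjusted p = 0.116).

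The oxidative arm of the pentose phosphate pathway makes NADPH. Its entry enzyme G6pdx measured 134, 120.3, 125 and 131 CPM in OCsCtr, 152, 148, 152 and 153 in OCsEo and 160.2, 152, 143 and 149.7 in OCsEoS. Both stimulated groups lay above OCsCtr and G6pdx rose 1.19-fold in each (log2 0.25, SE 0.06, adjusted p = 0.00542 and 0.00408). The gene shares 13.57% of its exonic bases with Ikbkg on the opposite strand. Pgls (the lactonase) and Pgd (the second NADPH-producing dehydrogenase) did not pass, with log2 differences of 0.14 and 0.08 in OCsEo and 0.09 and 0.03 in OCsEoS, although all OCsEo values of Pgd, 691 to 722 CPM, exceeded those of OCsCtr, 640.3 to 689.

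The non-oxidative arm rebuilds sugars and supplies ribose. Taldo1 (transaldolase) measured 998, 1023, 999 and 969 CPM in OCsCtr, 1163, 1162, 1212 and 1165 in OCsEo and 1064, 1060.1, 1022 and 1082 in OCsEoS. All OCsEo libraries were above the other groups, and Taldo1 rose 1.18-fold there (log2 0.24, SE 0.04, adjusted p = 0.00103). Rpia, the isomerase that forms ribose phosphate, measured 25.2 to 29.6 CPM in OCsCtr, 30.4 to 36.6 in OCsEo and 32 to 40.1 in OCsEoS. It rose 1.37-fold in OCsEoS (log2 0.46, SE 0.10, adjusted p = 0.00175), while the difference in OCsEo (log2 0.25, adjusted p = 0.0843) missed the threshold. Tkt (transketolase) and Rpe (the epimerase) did not pass in either comparison, and their log2 differences lay between -0.06 and 0.05.

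Comparing the stimulated groups with each other asks whether supernatant alone acts on these genes like whole eosinophils. No member passed the adjusted threshold in OCsEoS against OCsEo with edgeR, in either direction, where 0.095% of all genes rose and 0.497% fell (0.0731% and 0.307% in the stricter count). At an unadjusted p under 0.05 there were 9 members, 3 higher (of all genes 4.9% were) and 6 lower (of all genes 6.23% were). DESeq2 on all 12 libraries, in which 0.439% of all genes were higher and 1.08% lower, passed 3 members, with Slc2a1 higher (log2 0.24, adjusted p = 0.0291) and Taldo1 (log2 -0.15, adjusted p = 0.0162) and Pdk1 (log2 -0.39, adjusted p = 0.0321) lower in OCsEoS, and DESeq2 on the 2 groups passed 0. The groups did not overlap for 4 of 33 members (12.1%, beside 5.47% of all genes): Slc2a1 and Slc2a6 were higher and Hk3 and Taldo1 lower in OCsEoS. For Slc16a3 the difference was -0.28 on the log2 scale with an interval of -0.61 to 0.05, and for Ldhb -0.20 with an interval of -0.47 to 0.06, so that differences of this size were not resolved. That a gene passed edgeR's test against OCsCtr in 1 stimulated group alone, as Hk2, Pfkl, Tpi1 and Taldo1 did in OCsEo and Slc2a1, Slc2a6, Slc16a1, Rpia, Pfkm and Pdk1 in OCsEoS, is therefore not shown to be a difference between the stimulations.

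Some libraries stood at the edge of their group for many members. OCsEo replicate 4 had the highest value of its group for 20 of 33 members, among them Slc16a3, Ldha, Pfkl and Tpi1, and OCsEo replicate 1 the lowest for 17. In OCsCtr, replicate 1 was the lowest for 17, Slc16a3, Ldha and Ldhb among them, and mitochondrial transcripts took 1.43% of its counts, where the other 11 libraries had 0.487% to 0.898%. Without it, 7 members rose and 4 fell in OCsEo, and 6 rose and 7 fell in OCsEoS. The shares of all genes that passed in that fit are not given here, so these counts cannot be set against them. In OCsEoS, replicate 2 was the highest for 18 and replicate 4 the lowest for 20. The latter library was also the lowest of its group for Acp5, the tartrate-resistant phosphatase of osteoclasts (3088 CPM, where the others had 4038 to 4991). What sets these libraries apart was not tested.

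Other genes of the pathway give the surroundings of these changes. Of 12 genes for pyruvate entry into mitochondria, 11 were tested, with a median log2 fold change of -0.32 in OCsEo and -0.33 in OCsEoS, beside -0.01 over all genes. In each comparison 6 fell and 0 rose. Of all genes tested, 8.35% fell and 9.06% rose in OCsEo, and 11.2% fell and 11.8% rose in OCsEoS. The same shares apply to the counts of the lists that follow. Pdha1 and Pdhb, the subunits of the first enzyme of the pyruvate dehydrogenase complex, fell by 0.41 and 0.37 on the log2 scale in OCsEo and by 0.40 each in OCsEoS. Dlat and Dld, the other catalytic subunits, fell by 0.32 each in OCsEo and by 0.33 and 0.35 in OCsEoS. The kinase Pdk2 fell by 0.56 and 0.75, and Pdpr, the regulatory subunit of the phosphatase that switches the complex on, by 0.80 and 0.55. The carriers Mpc1 and Mpc2, which bring pyruvate into mitochondria, did not pass (log2 -0.11 and -0.21 in OCsEo, -0.25 and -0.18 in OCsEoS). Pdhx, a further part of the complex, did not pass either (log2 -0.19 in each comparison), nor did Pdp1 and Pdp2.

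Among 22 isozymes and side steps, 15 were tested, of which 0 rose and 4 fell in OCsEo and 1 rose and 5 fell in OCsEoS. Slc16a7 (MCT2), a further monocarboxylate carrier, was 157 to 189 CPM in OCsCtr, 93.5 to 110.1 in OCsEo and 104 to 139 in OCsEoS, and fell by 0.71 and 0.42 on the log2 scale (adjusted p = 1.55e-05 and 0.00149), opposite to Slc16a3. Pfkfb2, an isozyme of Pfkfb3, fell by 0.76 and 0.71, and Eno3, the muscle-type enolase, by 0.69 in OCsEoS. Of 12 sugar carriers 7 were tested and 1 rose and 1 fell in each comparison. The rise was that of Slc2a3 in OCsEo and that of Slc2a9 in OCsEoS (adjusted p = 0.0499). The fall was that of Slc37a2, a sugar phosphate carrier abundant in osteoclasts at 1869 ± 86.8 CPM (SD, n = 4) in OCsCtr, which fell by 0.57 and 0.55.

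Of 9 neighbors of the pentose phosphate pathway, 6 were tested and 1 rose and 1 fell in each comparison. The fall in OCsEo was that of H6pd (log2 -0.39, adjusted p = 0.00167, edgeR), opposite to G6pdx. In OCsEoS H6pd did not pass (log2 -0.19, adjusted p = 0.0869). Prps1, which activates ribose phosphate for nucleotide synthesis, rose 1.40-fold in OCsEo and 1.60-fold in OCsEoS (adjusted p = 0.00221 and 7.97e-05), and Shpk, sedoheptulose kinase, fell by 0.63 on the log2 scale in OCsEoS (adjusted p = 0.0451). Of 14 glycogen genes 12 were tested, with 1 fall in OCsEo and 3 in OCsEoS, where Gys1, the synthase, fell by 0.56 on the log2 scale. None of the 3 gluconeogenesis genes tested, of 7 listed, passed in either comparison.

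Of 20 regulators 18 were tested, with 4 rises and 3 falls in OCsEo and 1 rise and 3 falls in OCsEoS. Egln3, an oxygen-sensing prolyl hydroxylase that is itself induced by hypoxia-inducible factors, measured 1.39, 0.682, 1.32 and 1.28 CPM in OCsCtr, 2.45, 4.73, 6.72 and 12.5 in OCsEo and 3.63, 3.85, 3.47 and 0.554 in OCsEoS. All OCsEo libraries were above OCsCtr, at 5.65-fold (log2 2.50, SE 0.49, adjusted p = 0.00146, edgeR). The highest was replicate 4, which was also highest of its group for 20 of 33 members, Slc16a3 among them. With supernatant Egln3 did not pass (log2 1.30, adjusted p = 0.0625), whereas Slc16a3 rose 1.78-fold there. Egln1, a related hydroxylase, rose 1.42-fold in OCsEo (adjusted p = 0.00241) and did not pass in OCsEoS (log2 0.27, adjusted p = 0.0769). Hif1a did not pass in either comparison with OCsCtr (log2 -0.05 and 0.07, adjusted p = 0.827 and 0.704). Arnt fell in both (log2 -0.38 and -0.40, adjusted p = 0.0495 and 0.0309). A part of hypoxia in these changes was not tested. Ppargc1b, a coactivator of mitochondrial biogenesis in osteoclasts, fell by 0.63 on the log2 scale in OCsEo and by 0.57 in OCsEoS (adjusted p = 0.00147 and 0.00218).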

How the data were processed

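Bulk RNA-seq. was analyzed for 12 libraries, 4 biological replicates per group, from the counts per gene that the authors deposited. According to the methods and the submitters' processing notes, reads were aligned with HISAT2 2.0.5 to GRCm38/mm10 and counted with featureCounts, and fastp is also listed. The annotation release and the use of strand are not given in the sources used here, so counts may include reads from overlapping genes (share of exonic bases 20.58% for Pgls and 15.34% for Pkm, on the same strand, and 17.92% for Rpe, 13.57% for G6pdx and 11.48% for Gpi1, on the opposite strand), which was not tested. Here, counts were filtered with filterByExpr (minimum count 10), TMM-scaled and tested with edgeR 4.0.16 in R 4.3.3 (quasi-likelihood, all 12 libraries in 3 groups, no covariate). The scripts were tested on simulated data. DESeq2 1.42.0, other scalings, filters and samples were tried as alternatives, those with copies summed after seeing the data. Per-length levels use the gene lengths of the table, which for 24 of the 33 members equal the merged exons of GENCODE vM21. Merged exons can exceed 1 transcript, so the order of levels between genes depends on the annotation. Deviations of same-numbered libraries of different groups correlated with r from -0.044 to 0.094, under the 0.1 asked for in every pair, so no pairing was used. Replicate pairs differed beyond counting noise (chi-square per degree of freedom 9.79 to 34.4). CPM at 3 counts covers counting error only. The text names all 33 members, pathway neighbors past both thresholds (at most 10 per comparison), the highest marker of each list and near-identical copies. The whole pyruvate dehydrogenase complex, Pdp1, Pdp2, H6pd, Slc2a3, Slc2a9, Hif1a, Arnt and further eosinophil markers were named after their values were seen. Members and lists were chosen with earlier results of these data known.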

Additional observations from a re-analysis of the deposited data

Results flagged for a closer look

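In each group of 4 libraries, a library was taken as far from its group where its gap to the nearest other library, divided by the range of the group, exceeded Dixon's 95% critical value. This held for 8 of 99 groups examined, where chance gives about 5%. Gapdh stood out most, with a ratio of 0.980 for OCsEoS replicate 4 (181 CPM, others 4.98 to 8.51). Taldo1 gave 0.950 for OCsEo replicate 3 (1212 CPM, others 1162 to 1165), and Hk1 gave 0.930 for OCsCtr replicate 3 (130.0 CPM, others at 139). Slc16a3 gave 0.874 and Pfkm 0.863 for OCsEoS replicate 4, the lowest library in each case (124 CPM where others had 155 to 160.0, and 8.11 where others had 11.7 to 12.2). Hk3 gave 0.867 for OCsEo replicate 4 (110.1 CPM, others 91.7 to 94.2). Pfkp gave 0.870 for OCsCtr replicate 3 (102 CPM, others 98.1 to 98.6) and Eno1 0.832 for OCsCtr replicate 4 (1122 CPM, others 1027 to 1043).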

How the results depend on the processing

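No fold change of a member that passed the test reversed under any alternative, the causes of other differences were not tested, and medians moved by less than the replicate spread. Testing against a log2 fold change of 0.5 (glmTreat) in place of the 2 thresholds left 1 higher (Slc16a3) and 0 lower in OCsEo, and 0 higher and 1 lower (Ldhb) in OCsEoS. Removing the trend with gene length gave 2 higher in OCsEoS, Slc16a3 and Rpia, and added Hk2 in OCsEo (log2 0.54, adjusted p = 0.0196). Without a filter on low counts Gapdh was added to the falls in OCsEoS at both thresholds. In OCsEoS against OCsEo, DESeq2 on all 12 libraries passed 1 higher and 2 lower, and edgeR without a filter passed 1 lower (Pdk1). Leaving out each library in turn gave, at both thresholds, 1 to 3 higher and 1 to 2 lower in OCsEo and 1 to 2 higher and 3 to 3 lower in OCsEoS, and at the adjusted p alone 7 to 9 higher and 4 to 4 lower in OCsEo, 6 to 8 higher and 5 to 8 lower in OCsEoS, and 0 to 1 lower in OCsEoS against OCsEo (Pdk1, without OCsEo replicate 1 or OCsEoS replicate 2). With the replicate number as a replicate block, 8 members rose and 8 fell in OCsEoS, the added falls being Gpi1 and Aldoa, 8 rose and 4 fell in OCsEo, and no call at both thresholds changed. The check of pairing is in the methods, and 9 of 12 libraries correlated best with a library of their own number, a hint from the data and not the design. Genes under a few CPM, such as Eno2, Egln3 and Pfkfb3, are limited by depth. Member counts of this section are given without the shares of all genes that passed in the same fits.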
